A study of Mus musculus with 12 samples.

Results

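Cadherins are calcium-dependent adhesion molecules that hold neighbouring cells together through catenins and the actin cytoskeleton. Mesenchymal and epithelial cells carry different members of the family, and the exchange of mesenchymal for epithelial cadherins accompanies the conversion of mesenchyme into epithelium. The levels of 8 adhesion genes of that conversion, Cdh1, Cdh2, Cdh3, Cdh4, Cdh6, Cdh11, Cdh16 and Epcam, are described here in RNA of sorted mouse nephron progenitor cells. They were taken from the deposited table by gene name, each name matched 1 entry, and the 8 genes were 8 of the 49164 gene entries with counts. All 8 passed the filter on low counts, which left 17697 genes for testing.

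Each of the 12 libraries came from 1 litter at E17.5 (embryonic day), with CD1 females of 8 to 10 weeks mated to Tg(Six2-EGFP/cre) males, whose transgene marks the cap mesenchyme, and with embryos heterozygous for Six2 Cre. Kidneys of all embryos of a litter were pooled and digested with collagenase and dispase, and GFP-positive cells were sorted, so each value is a mean over littermates. The 3 maternal arms of 4 litters each were a normal control diet, an arm titled as ketogenic diet (K) and an arm titled as beta-hydroxybutyrate (BHB), each from conception onward. The treatment fields of K and BHB name the opposite regimen, so the names K and BHB stand for sets of libraries rather than diets, and both carry the same transgene as the controls. The comparison of both treated arms together with normal does not depend on that contradiction. Levels are CPM, counts per 1000000 of the total count times its TMM factor, with SD over the 4 litters of an arm.

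In the developing kidney the cap mesenchyme renews itself around the ureteric tips until Wnt signals make part of it condense, form a polarised renal vesicle and become nephron epithelium. Cdh11 (OB-cadherin), Cdh2 (N-cadherin) and Cdh4 (R-cadherin) are classical cadherins of mesenchymal and neural cells. Cdh6 (K-cadherin) is known from the renal vesicle and the future proximal segment. Cdh1 (E-cadherin) and Cdh3 (P-cadherin) are junction proteins of epithelia, the former of distal nephron and ureteric bud in kidney. Cdh16 (Ksp-cadherin) is largely confined to kidney tubules and lacks the catenin-binding tail of classical cadherins. Epcam is no cadherin but an epithelial membrane glycoprotein that binds claudins.

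Total counts ran from 7532784 to 12276119 per library. The progenitor genes Six2, Cited1 and Eya1 were present in all 12 libraries, Six2 at 228 to 510.1 CPM. Six2 and Eya1 overlapped between treated and normal litters, but Cited1 was lower in every treated litter. It was at 13.5 to 20.6 CPM in K 1, K 2, BHB 3 and BHB 4, and at 9.91 to 13.8 in the other treated litters. Normal litters had 22.8 to 24.8 CPM. Of 10 progenitor markers, 2 were lower in treated litters without overlap (1.86% of all genes did not overlap, in either direction). Before any result, K 3, K 4, BHB 1 and BHB 2 have to be named as standing apart: 10 summed progenitor markers were at 1457 to 1971 CPM there, against 2219 to 2554 in the other treated and 2452 to 2661 in the normal libraries. In the same 4 libraries 12 distal tubule and loop of Henle markers summed to 2122 to 3892 CPM, against 440.1 to 1069 and 375 to 936. The 10 ureteric markers summed to 278 to 490.3 CPM against 83.0 to 128 and 107 to 156, the 11 podocyte markers to 566 to 1305 against 329 to 401 and 169 to 287, and the 12 endothelial markers to 119 to 333 against 32.8 to 82.0 and 22.2 to 41.0. No marker of these 5 lists was at 0 in any library. Proximal tubule (12 markers, 700.3 to 3578 CPM in the 4 libraries, 409 to 1613 and 164 to 1448 in the others) and stroma lists (12 markers, 335 to 761, 343 to 477 and 291 to 423) overlapped between the sets. The podocyte sum did not overlap between treated and normal litters. It was at 344 to 1226 CPM in K and 329 to 1305 in BHB, against 169 to 287 in normal. The sum of the 11 leukocyte markers did not overlap either, at 43.4 to 76.7 CPM in K and 52.1 to 201 in BHB against 26.5 to 41.6 in normal. Taken singly, 1 of the 11 podocyte and 3 of the 9 tested leukocyte markers did not overlap (1.86% of all genes did not, in either direction). Erythroid markers summed to 121 to 298 CPM in the 4 libraries, 55.3 to 139.7 in the other treated and 76.5 to 141 in the normal ones, and in these and the stroma list Ren1 and Tyrobp were at 0 in 1 library each and Hbb-y in 7. BHB 1 also held intestinal transcripts, among them Fabp2 at 69.1 CPM against at most 0.101 in the other 11 libraries and Apoa4 at 438 against at most 0.566. The part of other cell types in the cadherin levels was not tested, and in sorted bulk cells fewer cells of a type and less RNA per cell cannot be told apart.

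Per kilobase of exon, the mesenchymal cadherin Cdh11 led in normal litters at 69.5 ± 5.24 CPM per kb (SD, n = 4; exon lengths of GENCODE M21), above every other gene of the set in each of those litters. Cdh4 at 33.7 ± 1.12, Cdh2 at 32.9 ± 1.95 and Cdh16 at 26.4 ± 8.36 CPM per kb followed, with overlapping litters. Epcam was at 20.2 ± 5.54, Cdh6 at 14.1 ± 1.56 and Cdh1 at 13.4 ± 4.80 CPM per kb, again overlapping their neighbours, and Cdh3 was lowest at 4.39 ± 1.22 without overlap. In K 3, K 4, BHB 1 and BHB 2 the order was different: Cdh16 ranked highest of the 8 genes in all 4, at 154, 123, 115 and 78.4 CPM per kb, while Cdh11 ranked 4 of 8 at 40.1, 42.9, 48.3 and 47.6. In the other 8 libraries Cdh11 kept the top rank. No exon of the 8 genes overlapped an exon of another annotated gene.

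The 4 epithelial genes were highest in K 3, K 4, BHB 1 and BHB 2. Cdh1 (ENSMUSG00000000303), whose product seals epithelial cells to each other, was at 70.8, 38.9, 87.3 and 47.9 CPM in normal 1 to 4. It was at 116, 56.1, 444 and 352 CPM in K 1 to 4, and at 269.8, 248, 62.9 and 46.8 CPM in BHB 1 to 4. K 3, K 4, BHB 1 and BHB 2 lay above all normal litters, and so did K 1, at 116 CPM against at most 87.3. K 2, BHB 3 and BHB 4 lay within the normal range, so the arms overlapped. Means were 61.2 ± 22.0 CPM in the normal arm, 242 ± 186 in K and 157 ± 118 in BHB (SD, n = 4). The fitted log2 difference from normal was 1.98 ± 0.72 (SE) for K (edgeR quasi-likelihood test, adjusted p = 0.221, unadjusted 0.0195) and 1.36 ± 0.71 for BHB (edgeR adjusted p = 0.446). Cdh1 varied more than most genes, since 98.1% of the genes tested had a smaller SD of log2 CPM over the 12 libraries.

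Cdh16 (ENSMUSG00000031881), the tubule cadherin, was at 90.3, 67.6, 143 and 98.7 CPM in normal 1 to 4. K 1 to 4 had 131, 69.9, 586 and 466 CPM, and BHB 1 to 4 had 436, 297, 122 and 93.0 CPM. The same 4 libraries stood above all others, the lowest of them, BHB 2, well above the next, normal 3, and the remaining treated litters lay inside the normal range. The fitted log2 difference was 1.65 ± 0.68 for K (edgeR adjusted p = 0.232) and 1.25 ± 0.67 for BHB (edgeR adjusted p = 0.449).

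Epcam (ENSMUSG00000045394) was at 44.2, 33.1, 61.2 and 38.8 CPM in normal 1 to 4. It was at 62.2, 44.1, 180.3 and 154 CPM in K 1 to 4 and at 158, 110.3, 37.2 and 36.3 CPM in BHB 1 to 4. Again K 3, K 4, BHB 1 and BHB 2 were high, K 1 was just above the highest normal litter, and the arms overlapped. The log2 difference from normal was 1.31 ± 0.56 for K (edgeR adjusted p = 0.238) and 0.95 ± 0.56 for BHB (edgeR adjusted p = 0.467). Cdh3 (ENSMUSG00000061048) was the least abundant of the set, at 24.5, 14.5, 23.2 and 14.8 CPM in normal, 25.3, 17.6, 75.6 and 50.5 in K and 53.4, 53.0, 18.6 and 19.8 in BHB. Its high litters were the same 4 and its arms overlapped. The log2 difference was 1.13 ± 0.50 for K (edgeR adjusted p = 0.245) and 0.91 ± 0.50 for BHB (edgeR adjusted p = 0.452).

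Cdh1 and Epcam are also expressed in gut epithelium, and the part of the intestinal transcripts of BHB 1 in its values was not tested. Without BHB 1, the log2 difference of BHB from normal was 0.96 ± 0.76 for Cdh1, 0.77 ± 0.69 for Cdh16, 0.66 ± 0.54 for Cdh3 and 0.47 ± 0.56 for Epcam. No other library had more than 1 Fabp2 count. K 2 had 11 counts of the intestinal cadherin Cdh17, against 229 in BHB 1, and 435 counts of the intestinal gene Muc2, against 166. Every library had at least 38 counts of Muc2.

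**Figure D1:**
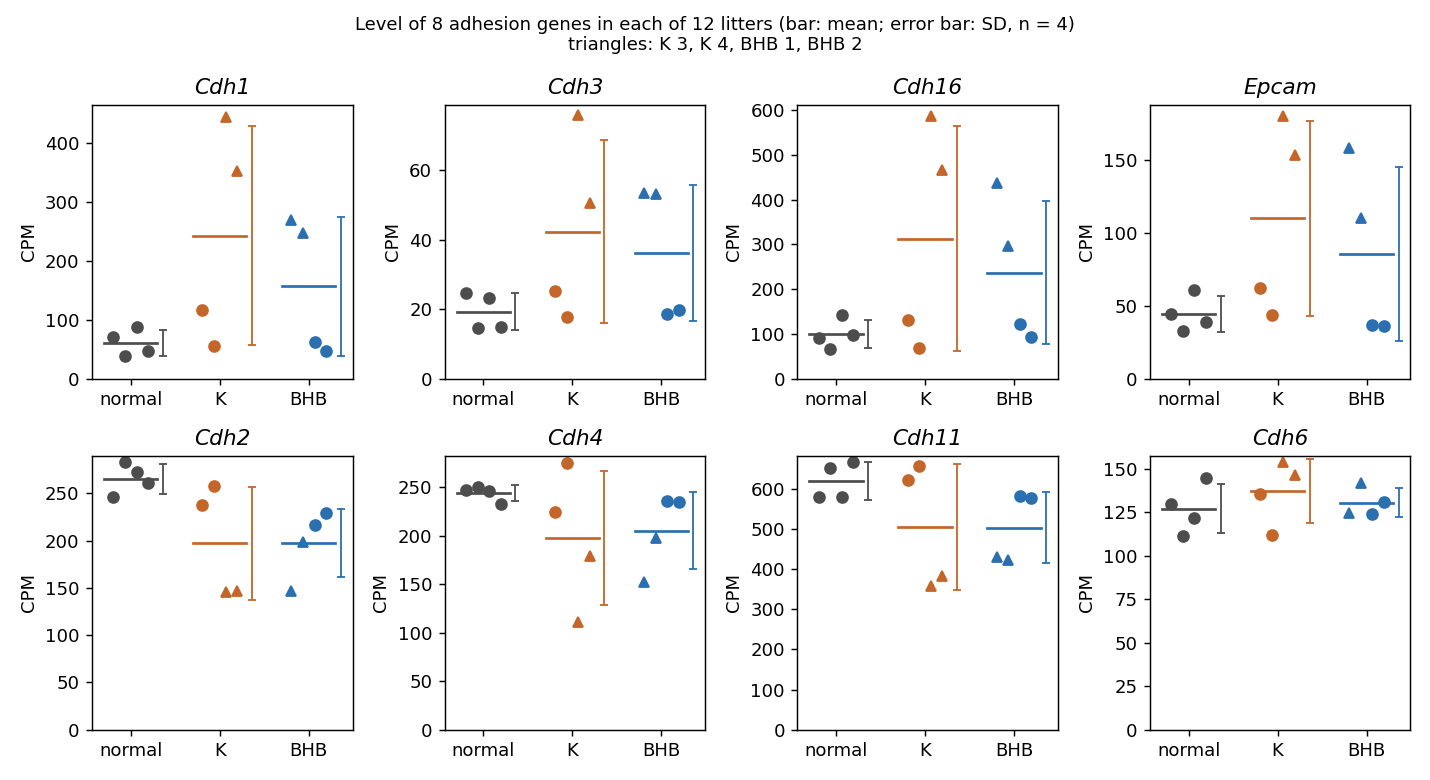
Level of each gene in CPM (vertical axes, from 0) for the 4 litters of the normal, K and BHB arms; points are litters, triangles are K 3, K 4, BHB 1 and BHB 2, horizontal lines are means and error bars the SD (n = 4). The triangles are the highest points for Cdh1, Cdh3, Cdh16 and Epcam and the lowest for Cdh2, Cdh4 and Cdh11, while for Cdh6, where the 12 libraries span 111 to 154 CPM, K 3 and K 4 are the highest points and BHB 1 and BHB 2 lie among the other litters.

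The 3 mesenchymal cadherins were lowest in the libraries where the epithelial genes were highest. Cdh11 (ENSMUSG00000031673), the most abundant of the set, was at 579, 651, 578 and 667 CPM in normal 1 to 4. K 1 to 4 had 622, 658, 357 and 382 CPM, and BHB 1 to 4 had 430.4, 424, 581 and 577 CPM. K 3, K 4, BHB 1 and BHB 2 lay below every other library, and the remaining treated litters were within or next to the normal range. The log2 difference from normal was -0.29 ± 0.20 for K (edgeR adjusted p = 0.398) and -0.30 ± 0.20 for BHB (edgeR adjusted p = 0.493).

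Cdh2 (ENSMUSG00000024304) was at 246, 283, 273 and 261 CPM in normal 1 to 4. It was at 238, 258, 146 and 147 CPM in K 1 to 4 and at 147, 199, 216 and 229 CPM in BHB 1 to 4. Every BHB litter lay below every normal litter, and Cdh2 was the only gene of the set whose groups did not overlap in a comparison of arms: 1 of 8, where 4.67% of the 17697 genes were lower in BHB without overlap. K overlapped normal through K 2. The log2 difference was -0.43 ± 0.19 for BHB (edgeR adjusted p = 0.423, unadjusted 0.0496) and -0.43 ± 0.19 for K (edgeR adjusted p = 0.250, unadjusted 0.0476). Without K 3, K 4, BHB 1 and BHB 2 the BHB difference was -0.25 ± 0.08, from BHB 3 and BHB 4 alone (edgeR unadjusted p = 0.00524, adjusted p = 0.365). In that fit 9.93% of 18129 genes had an unadjusted p of at most 0.05. The libraries left out were chosen after the data were seen, by markers with which Cdh2 varies, so this p is no independent test.

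Cdh4 (ENSMUSG00000000305) had the tightest normal litters, at 247, 251, 247 and 232 CPM, a mean of 244 ± 8.11. K 1 to 4 had 224, 275, 111 and 179 CPM, and BHB 1 to 4 had 153, 197, 236 and 235 CPM. K 3 was lowest and K 2 highest of all 12 libraries, so K spanned the normal range. The log2 difference was -0.31 ± 0.23 for K (edgeR adjusted p = 0.445) and -0.25 ± 0.23 for BHB (edgeR adjusted p = 0.600).

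Cdh6 (ENSMUSG00000039385) varied least of the 8 genes. It was at 130, 111, 122 and 145 CPM in normal, 135, 112, 154 and 147 in K and 125, 142, 124 and 131 in BHB. K 3 and K 4 were the highest of the 12 libraries, BHB 1 and BHB 2 lay within the range of the rest, and the arms overlapped. K 3 was 1.39-fold above the lowest, normal 2, against 11.4-fold for Cdh1, and 21.7% of the genes tested had a smaller SD of log2 CPM. The log2 difference was 0.11 ± 0.11 for K, with a 95% interval of -0.12 to 0.34, and 0.04 ± 0.11 for BHB, with an interval of -0.19 to 0.27 (edgeR adjusted p = 0.559 and 0.871).

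The RefSeq promoter table (GRCm38.p6, 250 bases before to 50 after the start of a gene) held only 2 of the 8 genes, Epcam and Cdh6, and both are shown. The E-box CANNTG, in capitals, is the core that basic helix-loop-helix, Snail and Zeb factors can bind. It was searched on both strands, and being a palindromic pattern it covers CACCTG and its reverse complement CAGGTG, the form preferred by Snail and Zeb repressors.
Epcam, chr17:87635729-87636028, plus strand: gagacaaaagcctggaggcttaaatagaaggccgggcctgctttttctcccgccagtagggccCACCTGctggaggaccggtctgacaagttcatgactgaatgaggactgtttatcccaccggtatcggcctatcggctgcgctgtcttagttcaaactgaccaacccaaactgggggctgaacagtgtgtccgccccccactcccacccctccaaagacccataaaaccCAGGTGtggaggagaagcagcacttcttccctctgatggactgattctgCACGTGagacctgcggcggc
Cdh6, chr15:13173626-13173925, minus strand: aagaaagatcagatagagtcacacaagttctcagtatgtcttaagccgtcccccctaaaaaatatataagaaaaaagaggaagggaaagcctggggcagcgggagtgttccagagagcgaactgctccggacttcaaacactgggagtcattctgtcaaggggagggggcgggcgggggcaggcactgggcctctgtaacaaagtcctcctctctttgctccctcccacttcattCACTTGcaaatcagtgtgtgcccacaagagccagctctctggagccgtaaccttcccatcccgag
The Epcam window held 3 E-boxes, CACCTG at -187, CAGGTG at -19 and CACGTG at 30 from the start, of which 2 were CACCTG on either strand. The Cdh6 window held 1, CACTTG at -15, and no CACCTG. Of 32851 promoter windows of the same length, 72.3% held CANNTG and 20.2% CACCTG. Neither window held AACNNGTT, a pattern of Grainyhead-like factors present in 4.20% of windows, or TATAAA, present in 13.6%, each searched on both strands. These are letters in a window and not measured sites.

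Across all genes, none passed edgeR's quasi-likelihood test after Benjamini-Hochberg adjustment in K, BHB, K with BHB, both treated arms or any difference among arms (0% of 17697 each), and so none of the 8 did. At an unadjusted p of at most 0.05 there were 3502 (19.8%), 2089 (11.8%), 1456 (8.23%), 3331 (18.8%) and 2510 (14.2%) genes, of which the 8 supplied 5, 1, 0, 5 and 0, and DESeq2 called 296, 73, 23, 226 and 100, with none of the 8 among them. In K with normal, 4 of the 8 were higher at an unadjusted p of at most 0.05 (Cdh1, Cdh3, Cdh16 and Epcam; 12.1% of all genes were) and 1 was lower (Cdh2; 7.68%). In BHB with normal 0 were higher (6.79%) and 1 was lower (Cdh2; 5.02%). With K and BHB combined, 4 were higher (11% of all genes) and 1 lower (7.84%), with log2 differences of 1.67 ± 0.66 for Cdh1, 1.45 ± 0.61 for Cdh16, 1.13 ± 0.50 for Epcam, 1.02 ± 0.45 for Cdh3 and -0.43 ± 0.17 for Cdh2. None of the 8 separated K from normal without overlap (10.1% of all genes did), K from BHB (4.06%) or both treated arms from normal (1.86%), and for BHB the share in either direction was 8.62%.

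When same-numbered K and normal litters were paired, on the assumption that the numbers mark pairs, 391 of 16746 genes passed the adjusted threshold (2.33%). None of the 8 was among them, with Epcam at 1.13 ± 0.27 (edgeR adjusted p = 0.0729), Cdh1 at 1.64 ± 0.42 (0.0790), Cdh16 at 1.24 ± 0.38 (0.112), Cdh3 at 0.97 ± 0.33 (0.134) and Cdh2 at -0.47 ± 0.16 (0.138). Without K 3, K 4, BHB 1 and BHB 2, the K difference was 0.49 ± 0.44 for Cdh1, 0.27 ± 0.26 for Epcam, 0.16 ± 0.24 for Cdh3 and 0.0084 ± 0.39 for Cdh16. In BHB, Cdh1 was at -0.16 ± 0.46 and Epcam at -0.27 ± 0.27. For Cdh4 and Cdh11 the K difference was 0.04 ± 0.08 and 0.06 ± 0.08 there, opposite in sign to that with all libraries. The 4 libraries were named by their progenitor markers after the data were seen, and the cadherins vary with those markers, so the choice of libraries bears on these values.

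**Figure D2:**
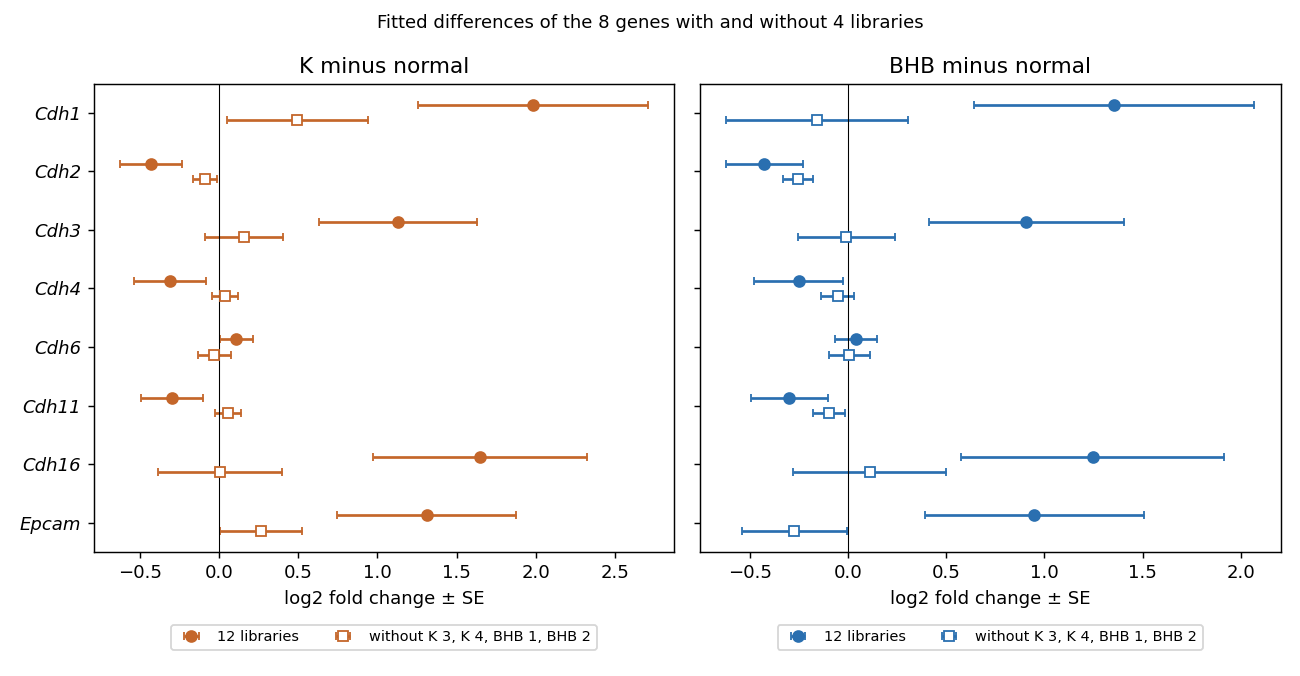
Fitted log2 fold change ± SE (horizontal axes) of K minus normal (left) and BHB minus normal (right) for the 8 genes, with 12 libraries (filled circles) and without K 3, K 4, BHB 1 and BHB 2 (open squares). The K difference of Cdh1 goes from 1.98 to 0.49 and that of Cdh16 from 1.65 to 0.0084, while Cdh2 in BHB goes from -0.43 to -0.25.

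K and BHB were compared to ask whether the treated arms differed from each other, and no difference passed the test. The log2 difference of K minus BHB was 0.63 ± 0.70 for Cdh1 (95% interval -0.91 to 2.16; edgeR adjusted p = 0.846), 0.40 ± 0.66 for Cdh16 (-1.05 to 1.85) and 0.36 ± 0.55 for Epcam (-0.85 to 1.57). It was 0.22 ± 0.49 for Cdh3 (-0.85 to 1.29). The intervals were narrower for Cdh2 (-0.43 to 0.42), Cdh4 (-0.55 to 0.44), Cdh11 (-0.42 to 0.43) and Cdh6 (-0.16 to 0.30). These intervals do not show that the arms were alike.

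Ratios within a library do not depend on its scaling. The ratio of Cdh1 to Cdh2 counts was 0.287, 0.138, 0.320 and 0.183 in normal 1 to 4, 0.488, 0.217, 3.05 and 2.40 in K 1 to 4, and 1.83, 1.25, 0.290 and 0.204 in BHB 1 to 4. It exceeded 1 in K 3, K 4, BHB 1 and BHB 2 and in no other library, and its range was 22.2-fold. Relative to the progenitor gene Six2, the mesenchymal cadherins were steadier than in CPM: Cdh11 was at 1.26 to 1.81 counts per Six2 count over all 12 libraries, a 1.44-fold range. Cdh2 ranged 1.51-fold (0.482 to 0.726) and Cdh4 1.51-fold (0.488 to 0.737). Cdh1 ranged 25.5-fold against Six2, Cdh16 19.4-fold, Epcam 12.2-fold, Cdh3 11.6-fold and Cdh6 3.10-fold. Within the epithelial group the narrowest ranges were 1.69-fold for Cdh3 to Epcam and 1.83-fold for Cdh1 to Cdh16 (0.485 to 0.890). They were 2.08-fold for Cdh16 to Epcam, 2.09-fold for Cdh1 to Epcam and 2.51-fold for Cdh3 to Cdh16, and widest, 2.96-fold, for Cdh1 to Cdh3 (2.36 to 6.97).

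**Figure D3:**
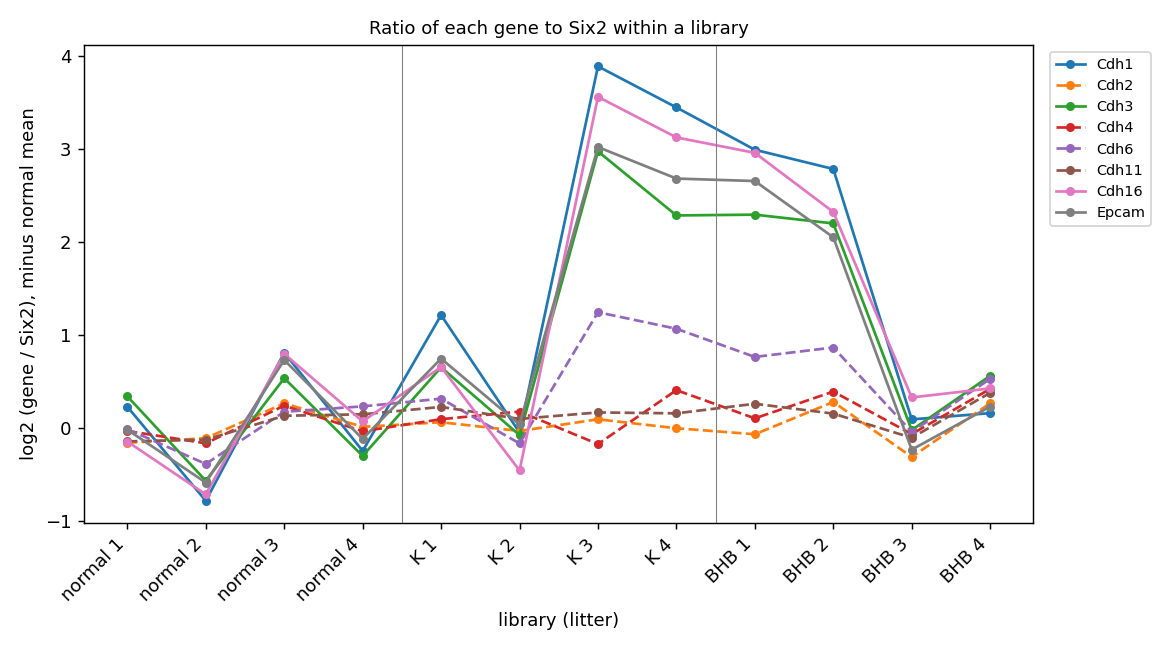
Log2 ratio of each gene to Six2 in each library, minus the mean of the 4 normal libraries (vertical axis), for the 12 litters in order of arm (horizontal axis); solid lines are Cdh1, Cdh3, Cdh16 and Epcam, dashed lines Cdh2, Cdh4, Cdh6 and Cdh11. The solid lines stand high in K 3, K 4, BHB 1 and BHB 2, Cdh6 is moderately raised there, and Cdh11 ranges 1.44-fold over all 12 libraries.

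Because the progenitor markers set K 3, K 4, BHB 1 and BHB 2 apart, correlations were described within the other 8 libraries. The genes of a pair share each library's total count and scaling factor. Over all genes the separation was less sharp, since on the first principal component BHB 2, at 21.0, lay between K 3, K 4 and BHB 1, at 54.5 to 73.0, and the other 8, at -58.9 to -11.0. Over these 8, Pearson r of log2 CPM was 0.92 for Cdh1 with Epcam (Spearman 0.93), 0.86 with Cdh3 (0.83) and 0.75 with Cdh16 (0.71). It was -0.23 for Cdh1 with Cdh2 (-0.24) and -0.37 with Cdh11 (-0.24). Over all pairs of an epithelial gene with a mesenchymal cadherin, r ran from -0.68 for Cdh3 with Cdh11 (-0.60) to 0.08 for Epcam with Cdh2 (-0.02). Cdh16 had r = -0.64 with Cdh4 (-0.67) and -0.54 with Cdh11 (-0.33). Cdh6 and Cdh4 had r = -0.79 (-0.88). Among the other epithelial genes it was 0.76 for Cdh3 with Epcam (0.76), 0.66 for Cdh16 with Epcam (0.60) and 0.60 for Cdh3 with Cdh16 (0.57). Cdh1 had r = 0.97 there with the summed distal markers and -0.39 with the summed progenitor markers.

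By the highest Pearson r over all 12 libraries among 16991 genes, the pattern most like Cdh1 was that of Esrrg, an orphan nuclear receptor (r = 0.997, and 0.984 in the 8 libraries). Pou3f3, a transcription factor of the loop of Henle, and Itga6, a laminin receptor, followed. Epcam was closest to Plch2 (0.996, and 0.963), Ocln, a tight junction protein, and Cpeb2. Cdh16 was closest to Grb7 (0.991, and 0.890), Cobll1 and L1cam, and Cdh3 to Lama1, a laminin chain (0.989, and 0.912), Ston2 and Iqgap1. Cdh11 was closest to Tmeff1 (0.979, and 0.760 in the 8), Kansl2 (0.854 in the 8) and Trp53i11 (0.652 in the 8). Cdh2 was closest to Ska2 (0.980, and 0.933), Elavl4 (0.783 in the 8) and Rbmx (0.876 in the 8). Cdh4 was closest to Amph (0.973, and 0.634), Asxl3 (0.479 in the 8) and Abr (0.550 in the 8). For Cdh6 the best match over the 12 libraries was weaker, Slc4a11 at 0.902 (0.881 in the 8), then Nosip and BC004004. With Spearman's rho, 1 of the 3 named genes was kept for Cdh1 and 0 for the others.

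The genes around the cadherins were described from 9 lists, for both treated arms against normal, as counts and medians beside those of all genes, and "higher" and "lower" there give only the sign of the fitted difference. Over all 17697 genes 9042 had a difference above 0 and 8655 below, with a median of 0.01, and no list had a gene past the adjusted threshold. At an unadjusted p of at most 0.05, 11% of all genes were higher and 7.84% lower, and the list counts at that threshold stand beside those shares. Of 16 other cadherins 6 passed the filter, 3 higher and 3 lower (median 0.01), of them 1 higher and 2 lower at an unadjusted p of at most 0.05. The endothelial cadherin Cdh5 was at 2.81 ± 1.73 CPM in the normal arm, 20.9 ± 11.6 in K and 20.9 ± 25.2 in BHB, a log2 difference of 2.87 ± 0.87 (edgeR adjusted p = 0.252). Its K and normal litters did not overlap (10.1% of all genes did not, in either direction). The summed endothelial markers differed between the libraries in the same direction, and their part in Cdh5 was not tested. Cdh24 was at 37.9 ± 1.83 CPM in the normal arm, 26.2 ± 5.65 in K and 31.9 ± 9.31 in BHB.

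Of 17 catenins, nectins and other adherens junction genes 15 were tested, with 10 higher and 5 lower (median 0.06), 2 higher and 2 lower at an unadjusted p of at most 0.05. Ctnnb1 (beta-catenin), which joins classical cadherins to the cytoskeleton, differed by -0.07 ± 0.07 and Ctnna1 by 0.13 ± 0.09. Nectin3 was at 74.0 ± 2.33 CPM in the normal arm, 70.7 ± 2.68 in K and 60.7 ± 4.86 in BHB. No BHB litter reached the lowest normal one, where 4.67% of all genes were lower in BHB without overlap. Plekha7, an adherens junction scaffold of epithelia, was at 24.7 ± 5.72, 58.6 ± 35.5 and 44.0 ± 18.1 CPM.

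Of 11 transcription factors of mesenchymal identity, among them the Snai and Zeb factors, 8 were tested, 1 higher and 7 lower (median -0.19), and 1 each way at an unadjusted p of at most 0.05. Snai2 (Slug), a repressor of Cdh1, was at 21.1 ± 2.55 CPM in the normal arm, 15.9 ± 3.11 in K and 17.1 ± 2.29 in BHB. There was no overlap of Snai2 between K and normal (10.1% of all genes had none, in either direction). Zeb2, another repressor of Cdh1, was at 71.5 ± 6.01, 85.3 ± 8.91 and 84.3 ± 11.6 CPM, the opposite direction. Of 18 regulators of epithelial identity 17 were tested, 15 higher and 2 lower (median 1.26), and 8 were higher at an unadjusted p of at most 0.05. Cebpa, a transcription factor of several epithelia, was at 5.98 ± 0.651 CPM in the normal arm, 13.7 ± 7.27 in K and 12.3 ± 7.74 in BHB, and Grhl2, an activator of Cdh1 and Epcam in epithelia, differed by 1.45 ± 0.62. Klf4 was at 101 ± 3.75 CPM in the normal arm, 155 ± 19.9 in K and 144 ± 66.6 in BHB. K did not overlap normal (10.1% of all genes did not, in either direction), and BHB did.

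All 24 tight junction and polarity genes were tested, 18 higher and 6 lower (median 0.29), 8 higher and 2 lower at an unadjusted p of at most 0.05. Cgn (cingulin) was at 19.3 ± 3.37 CPM in the normal arm, 57.4 ± 37.5 in K and 49.9 ± 30.5 in BHB, a log2 difference of 1.47 ± 0.49, and Tjp3 differed by 1.38 ± 0.48. The broadly expressed Tjp1 and Dlg1 were at 0.02 ± 0.09 and -0.0012 ± 0.05. Of 12 desmosome and keratin genes 11 were tested, 10 higher and 1 lower (median 1.31), 7 higher and 0 lower at that threshold. Dsp (desmoplakin) was at 39.2 ± 8.61, 116 ± 75.5 and 89.7 ± 53.8 CPM. All 10 genes listed as partners of Epcam had differences above 0 (median 1.26), 3 of them at an unadjusted p of at most 0.05, with the protease inhibitor Spint2 at 33.4 ± 5.34, 92.7 ± 59.6 and 72.5 ± 43.5 CPM and its protease St14 (matriptase) at 1.58 ± 0.65.

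Of 13 mesenchymal filament and matrix genes 12 were tested, 8 higher and 4 lower (median 0.35), 2 higher and 1 lower at that threshold. Fn1 (fibronectin) was at 171 ± 26.9 CPM in the normal arm, 229.9 ± 32.4 in K and 235 ± 70.7 in BHB, while the matrix proteins Sparc and Tnc differed by -0.22 ± 0.10 and -0.33 ± 0.17. Of 17 signals and transcription factors of the conversion 12 were higher and 5 lower (median 0.70), 9 higher at an unadjusted p of at most 0.05. Lhx1, needed for the renal vesicle, was at 18.0 ± 2.86, 29.3 ± 8.02 and 29.4 ± 9.88 CPM, the Notch ligand Dll1 differed by 0.86 ± 0.28 and its relative Jag1 by 0.55 ± 0.16. Wnt4, the inducer of the conversion, differed by -0.19 ± 0.20.

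With K 3, K 4, BHB 1 and BHB 2 removed, medians of these lists were 0.01 for epithelial regulators, 0.11 for desmosome and keratin genes, -0.16 for Epcam partners, 0.01 for tight junction and polarity genes and 0.25 for signals of the conversion. They were -0.04 for the mesenchymal transcription factors, -0.03 for catenins and nectins, -0.12 for other cadherins and 0.11 for mesenchymal filament and matrix genes. Of the signals 13 of 17 were above 0 there, and of the Epcam partners 3 of 10.

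**Figure D4:**
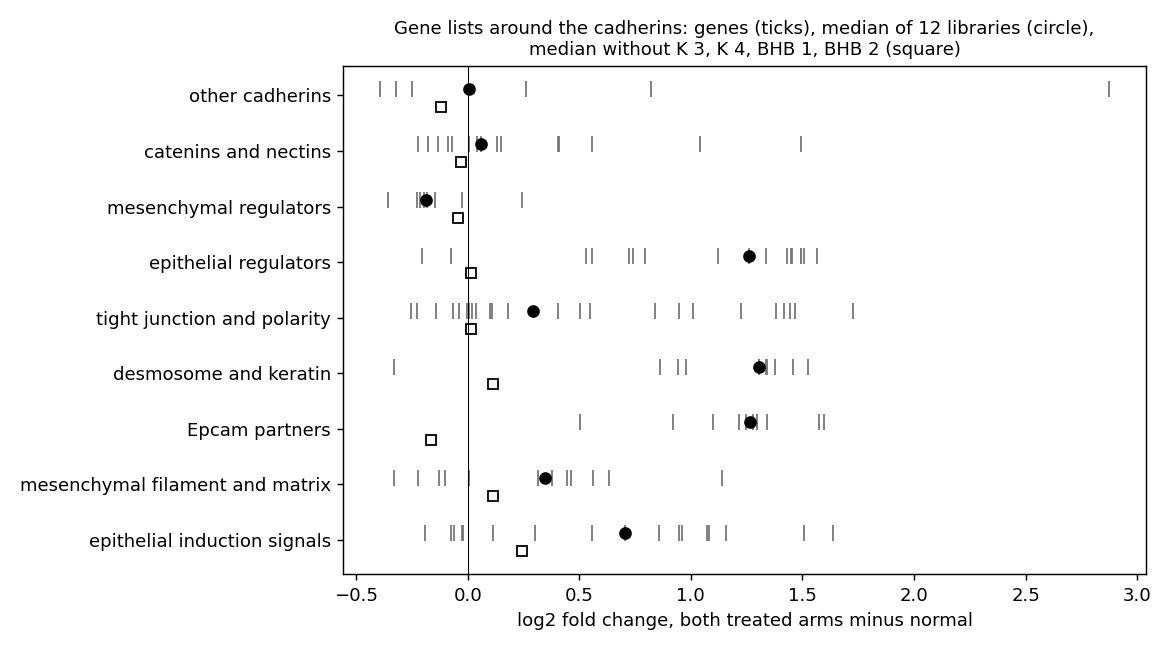
Log2 fold change of both treated arms minus normal (horizontal axis) for the tested genes of 9 lists (rows): grey ticks are genes, black circles the list median with 12 libraries, open squares the median without K 3, K 4, BHB 1 and BHB 2. Epithelial regulators, desmosome and keratin genes and Epcam partners have medians of 1.26, 1.31 and 1.26 with all libraries and 0.01, 0.11 and -0.16 without the 4.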

How the data were processed

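Per the labels, RNA of 50000 to 100000 sorted cells per litter went into a stranded total RNA kit and was sequenced as single reads. The authors deposited raw counts per gene and, in the same table, a normalized signal, the count divided by a size factor per library; the signal was not used for tests. Versions in the submitters' processing notes are 2.10 for cutadapt, 2.1.1 for TopHat2, 2.01 for HTSeq and 1.36.0 for DESeq2. For the genome build, annotation and strand setting the sources used here give nothing. Of 55414 gene entries, 6250 with blank counts were left out.

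The deposited counts of all 12 libraries were fitted with edgeR 4.0.16 in R 4.3.3 (robust quasi-likelihood, TMM factors, filterByExpr with a minimum count of 10 and a minimum total of 15), with a mean per arm and 9 residual degrees of freedom. P-values were Benjamini-Hochberg adjusted over 17697 genes, with a threshold of 0.05. Correlations used log2 CPM with a prior count of 2. The fit was tested on simulated data. DESeq2 1.42.0, RLE factors, no filter, the robust step off, only the arms compared, a replicate block, a prior count of 0.5 and leaving out each library were tried. The fits without K 3, K 4, BHB 1 and BHB 2, and the block with only K and normal, were added after seeing the data.

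The 8 genes and the lists were chosen with earlier results of these data known. The named genes of each list are from the 4 with the smallest p for both treated arms, and the genes most like each of the 8 are the 3 with the highest Pearson r. Ctnnb1, Ctnna1, Grhl2, Tjp1, Dlg1, Wnt4, Cdh17 and the intestinal genes were picked with their values in view. The libraries of K and normal carry replicate numbers 1 to 4 in the labels, and the numbers were taken to pair them. Deviations of same-numbered libraries from their arm means had r = 0.11, 0.46, 0.34 and 0.24 over all genes tested. Some differently numbered libraries were as alike, with r = 0.46 for normal 2 with K 1 and 0.44 for normal 3 with K 4. These r therefore do not show that the numbers mark pairs. Same-numbered BHB libraries had r from -0.26 to 0.10 with normal and from -0.44 to -0.22 with K. Litters are the replicates, and counting error is covered by the fit. Lengths are unions of exons of GENCODE M21. Some genes of the lists are not reported here by name.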

Additional observations from a re-analysis of the deposited data

How the results depend on the processing

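None of the 8 genes passed the adjusted threshold under any alternative, nor any when a library was left out. Counts of genes called over the whole table, 0 in each comparison, depended on the tool and the libraries. Without the filter they were 2 for K, 2 for BHB, 4 for both treated arms and 5 for any difference. DESeq2 gave 296 for K, 73 for BHB, 23 for K with BHB, 226 for both and 100 for any difference, leaving the adjusted p of 3448, 23, 10980, 367 and 23 genes undefined. Without K 3, K 4, BHB 1 and BHB 2 they were 12, 5, 36 and 32 for K, BHB, K with BHB and any difference, and 0 for both treated arms. Leaving out 1 library gave 0 to 4 genes for K (4 without BHB 1) and 0 to 1 for any difference (1 without normal 4), and 0 for the other comparisons. The replicate block with all 12 libraries gave 0 in every comparison, and the replicate block with only K and normal, paired by number, gave 391; the pairing changed no call of the 8 genes.

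Some log2 differences changed sign. Without the 4 libraries these were, for K, Cdh4 (0.039), Cdh6 (-0.029) and Cdh11 (0.056); for BHB, Cdh1 (-0.16), Cdh3 (-0.0093) and Epcam (-0.27); for K with BHB, Cdh2 (0.17), Cdh4 (0.092), Cdh6 (-0.036) and Cdh16 (-0.10); and for both arms, Cdh6 (-0.010) and Epcam (-0.0035). For K with BHB, Cdh2 was 0.00188 with RLE factors, 0.024 without the filter and 0.0016 with DESeq2, and Cdh11 -0.020 with the replicate block. Leaving out 1 library moved BHB Cdh6 between -0.020 and 0.11, and for K with BHB moved Cdh2 between -0.16 and 0.12, Cdh3 between -0.22 and 0.48, Cdh4 between -0.26 and 0.14, Cdh11 between -0.15 and 0.14 and Cdh16 between -0.10 and 0.87. The cause was not tested.

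Each gene had at least 124 counts in every library. With 4 litters an arm, the SD of Cdh1 in K was 186 CPM around a mean of 242, and what limited the calls was not tested.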

Other observations

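Cdh17, the intestinal cadherin closest in structure to Cdh16, did not pass the filter on low counts and was chosen after its values were seen. It had 229 counts (19.7 CPM) in BHB 1, 11 counts in K 2, and at most 1 count in each of the other libraries, with 6 libraries at 0. Of 10 markers of intestinal epithelium written down after Cdh17 was seen, 8 were highest in BHB 1: Apoa4 with 5078 counts against at most 6 in another library, Fabp2 with 802 against at most 1, Lgals4 with 759 against at most 121, Isx with 45 against 0, Cdx2 with 38 against at most 1, Cdx1 with 14 against at most 5, Phgr1 with 10 against at most 3 and Sis with 3 against at most 2. Muc2 was highest in K 2 (435 counts, 166 in BHB 1) and Guca2a in K 3 (17 counts, 11 in BHB 1). Every library had at least 42 counts of Lgals4 and at least 38 of Muc2. BHB 1 also had the highest Cdh5 of all libraries, 669 counts (57.7 CPM) against 8 to 322 elsewhere.

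Of the adhesion genes outside the set, the other cadherins that did not pass the filter (Cdh7, Cdh8, Cdh9, Cdh10, Cdh12, Cdh15, Cdh18, Cdh19 and Cdh26) stayed at or below 1.34 CPM in every library.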
